A study of Mus musculus with 16 samples.

Results

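Glucose enters a cardiomyocyte through membrane transporters and is either stored as glycogen or broken down by glycolysis to pyruvate. The transcripts of 35 genes of this route were examined in the left atrium (LA) of old female mice. They encode the glucose and lactate carriers, the enzymes of each glycolytic step, the enzymes that set the level of the activator of phosphofructokinase, lactate dehydrogenase, the pyruvate dehydrogenase complex with its kinases, and the enzymes of glycogen. The genes were listed by symbol for their roles, with earlier results of these data known. All 35 were found among the 24958 named rows of the table, and all 35 had a mean of at least 10 over the 16 libraries, the minimum for testing, which 14251 genes passed.

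RNA from the entire LA of C57BL6/J females aged 24 months was sequenced in 4 groups, each with 4 libraries. Ovx + AngII mice were ovariectomized at 12 months and received angiotensin II (AngII), a peptide hormone that raises blood pressure, for 4 weeks. Ovx mice had the same operation and no AngII. AngII mice kept their ovaries and received the infusion, and control mice (Ctrl) had neither. No strain, allele or transgene differed between groups, and by the study's methods sham surgery placed no pump with vehicle, so that the peptide and the implanted pump cannot be told apart. The study also states that running saucers were taken away during AngII treatment, and does not say whether untreated mice kept theirs. It reports a lower body weight with AngII in control mice of this age. The part of running and of body weight in the values below was not tested. The comparisons ask how the LA of old females responds to AngII, and whether the loss of the ovaries changes that response.

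As background, the adult heart draws most of its energy from fatty acids and lactate, and uses glucose in a smaller share that grows under pressure load. Muscle carries its own forms of several of the enzymes, encoded by Pfkm, Pgam2, Eno3 and Pygm, beside forms found in most tissues, such as those of Pfkl, Pfkp, Pgam1 and Eno1. Slc2a4 encodes GLUT4, the glucose carrier that insulin brings to the surface of muscle cells, and Slc2a1 encodes GLUT1, the carrier of most other cells. The pyruvate dehydrogenase complex admits pyruvate to the mitochondrion's oxidation, and its kinases (Pdk1 to Pdk4) switch it off.

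Promoters of these genes are shown because 10 of the 35 genes passed a test of AngII. RefSeq promoters of the mm10 build (GRCm38.p6) matched 34 of the 35 genes, at 53 start sites, and Slc2a4 was not matched. The 6 printed here belong to the genes with the smallest adjusted p among those past the test that have a single listed start site. Each is the 250 bases before the start, read 5′ to 3′ on the strand of the gene. Capitals mark the letters ACGTG on either strand, a form of the core of the hypoxia response element. The other form, GCGTG, was not searched and is not marked. In Slc16a1 the matches on both strands overlap and together spell CACGTG, the E-box.
Slc16a1: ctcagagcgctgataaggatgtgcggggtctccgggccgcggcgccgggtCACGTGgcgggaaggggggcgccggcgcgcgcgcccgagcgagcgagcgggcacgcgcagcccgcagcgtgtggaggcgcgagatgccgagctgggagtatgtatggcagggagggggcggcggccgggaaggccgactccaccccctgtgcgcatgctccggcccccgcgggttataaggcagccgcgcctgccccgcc
Pfkp: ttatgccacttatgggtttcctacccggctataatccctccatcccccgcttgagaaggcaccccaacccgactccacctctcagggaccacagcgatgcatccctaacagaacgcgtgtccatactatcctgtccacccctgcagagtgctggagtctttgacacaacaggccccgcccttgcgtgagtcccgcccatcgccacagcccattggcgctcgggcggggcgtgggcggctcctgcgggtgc
Pgam1: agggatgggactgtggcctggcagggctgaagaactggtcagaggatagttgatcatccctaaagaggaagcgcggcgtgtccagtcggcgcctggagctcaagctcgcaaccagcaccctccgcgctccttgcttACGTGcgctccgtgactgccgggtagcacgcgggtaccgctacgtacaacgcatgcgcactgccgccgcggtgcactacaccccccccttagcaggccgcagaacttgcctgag
Eno2: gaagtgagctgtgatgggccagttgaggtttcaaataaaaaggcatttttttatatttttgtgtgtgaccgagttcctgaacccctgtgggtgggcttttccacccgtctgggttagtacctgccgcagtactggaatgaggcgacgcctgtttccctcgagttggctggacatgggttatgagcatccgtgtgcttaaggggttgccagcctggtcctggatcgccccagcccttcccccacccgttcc
Pygm: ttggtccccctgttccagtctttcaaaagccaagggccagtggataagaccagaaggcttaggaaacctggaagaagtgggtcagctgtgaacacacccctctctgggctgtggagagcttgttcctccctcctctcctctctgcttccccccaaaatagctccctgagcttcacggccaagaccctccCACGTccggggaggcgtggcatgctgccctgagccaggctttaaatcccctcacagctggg
Pdha1: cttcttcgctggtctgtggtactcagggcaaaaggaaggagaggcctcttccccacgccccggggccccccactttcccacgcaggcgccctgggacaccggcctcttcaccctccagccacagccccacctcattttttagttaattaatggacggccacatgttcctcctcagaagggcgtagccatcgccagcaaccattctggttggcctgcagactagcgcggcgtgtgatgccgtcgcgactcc

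These windows lie at chr3:104638414-104638663 on the plus strand for Slc16a1, chr13:6648772-6649021 on the minus strand for Pfkp, chr19:41911621-41911870 on the plus strand for Pgam1, chr6:124769674-124769923 on the minus strand for Eno2, chr19:6384158-6384407 on the plus strand for Pygm and chrX:160138431-160138680 on the minus strand for Pdha1. The Pfkp window lies inside the annotated gene, which reaches to 6649060, so its listed start is not at the outer end of that span. ACGTG was found in the windows of Slc16a1, Pgam1 and Pygm, and not in those of Pfkp, Eno2 and Pdha1. The form GCGTG, which the Pfkp and Pdha1 windows hold among others, was not counted. Over all the genes examined, 21 of 53 promoter windows (39.6%) held ACGTG, against 16.6% of the 32851 promoters of the genome. The 53 windows belong to 34 genes, some with several start sites, and 17 of these genes held ACGTG in at least 1 window. No share per gene was computed for the genome. ACGTG contains the pair CG, so its frequency depends on base composition. The 6 printed windows held 54.4% to 76.4% G and C, against a median of 52.4% for all promoters. The composition of all 53 windows was not computed, and its part was not tested. CACGTG, which contains ACGTG and overlaps it, was in 11.3% of the windows of the glucose genes and 6.02% of all. The half-site of estrogen-related receptors, AAGGTCA, was in 3.77% and 4.08%, and the palindromic estrogen response element, GGTCANNNTGACC, was in 0 of the 53 windows and in 0.0639% of all. These letters are a description of the windows, and binding was not measured.

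Features of the libraries bear on every value below. Values are the deposited normalised read counts divided by a median-of-ratios factor recomputed here, called rescaled counts, because the deposited scale differed between the ovariectomized and the other mice: the factors were 0.9451 to 0.9496 in Ovx + AngII and Ovx libraries and 1.06 to 1.07 in AngII and control libraries. Column totals before rescaling were 17585151 to 21498916. The library labelled Ctrl replicate 4 stood apart. Its mean correlation with its own group was 0.945, against 0.963 to 0.980 for the other 15 libraries, and a line of the file's header places the AngII title above its column although its own label reads control. Its group was taken from its label. Haemoglobin genes took 0.971% of the values there and 1.46% in AngII replicate 4, against 0.0614% to 0.349% elsewhere, and 7 macrophage markers summed to 38980 there, against 12640 to 23290 in the other libraries. Counts of the 35 genes past the test, and the values it moved most, are therefore given with and without that library.

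Ranked by rescaled count per kilobase of exon, glyceraldehyde phosphate dehydrogenase Gapdh was the most abundant of the 35 genes in the LA (21759 per kilobase over the 16 libraries), followed by aldolase Aldoa (14892), the muscle phosphoglycerate mutase Pgam2 (13459), the heart form of lactate dehydrogenase Ldhb (9122) and the muscle enolase Eno3 (7634). The muscle form led among the phosphofructokinases, and the insulin-responsive carrier among the glucose carriers, on this scale: Pfkm had 4545 per kilobase, against 564 for Pfkl and 246 for Pfkp, and Slc2a4 had 2020, against 186 for Slc2a1. Among the hexokinases Hk1 had 1239 and the muscle form Hk2 had 681. At the low end were Pfkfb1 (17.0 per kilobase) and the brain aldolase Aldoc (3.70), whose fold changes carry the widest errors. Gapdh, Pgk1, Eno1 and Ldha have processed copies in the mouse genome, and how shared reads were divided among copies is not given in the sources used here.

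**Figure D1:**
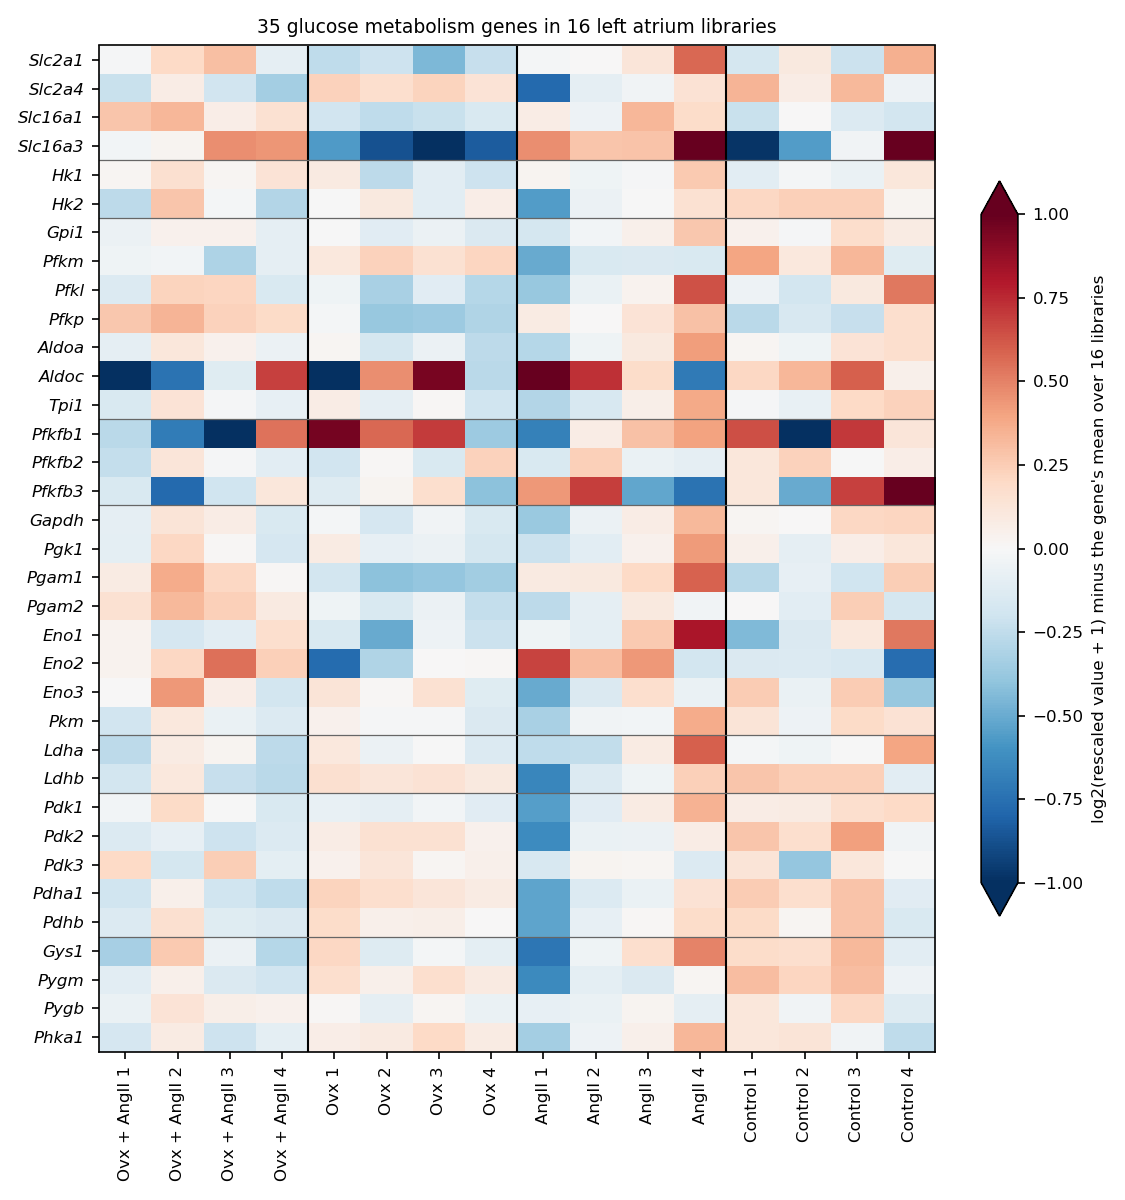
Heat map of the 35 genes (rows, grouped by role and divided by grey lines) in the 16 libraries (columns), coloured by log2(rescaled count + 1) minus the gene's mean over all libraries. Within AngII mice, replicate 1 was the lowest of its group in 26 genes and replicate 4 the highest in 25; in the library labelled Ctrl replicate 4 (Control 4), Slc16a3 is at the high end of the colour scale, which is capped at 1 and -1.

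Within a group, many of these genes were high or low in the same library. AngII replicate 1 had the lowest value of its group in 26 of the 35 genes and AngII replicate 4 the highest in 25. Ovx + AngII replicate 2 was the highest of its group in 26 genes, and Ovx replicate 1 in 20. The median distance of a library from the other 3 of its group, over the 35 genes, was 0.44 on the log2 scale in AngII replicate 1, 0.45 in AngII replicate 4, 0.32 in the library labelled Ctrl replicate 4 and 0.24 in Ovx + AngII replicate 2, and at most 0.17 in the others. The genes are therefore not independent readings of a group.

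Averaged over both AngII comparisons, the lactate carrier Slc16a1 and the enzymes Pfkp, Pgam1 and Eno2 rose, and Pfkm, Pygm, Pdk2, Pdha1 and the glucose carrier Slc2a4 fell. Their shifts ran from -0.36 to 0.57 on the log2 scale. None of the 35 genes reached the study's own threshold, which asks for a 2-fold shift beside an adjusted p of 0.05, in any comparison (2.32% of all genes did in Ovx + AngII against Ovx mice, 0.554% in AngII against control mice and 1.99% in the mean of both). Without the library labelled Ctrl replicate 4, Slc16a3 met that threshold in all 3 of these tests. In whole tissue, fewer cells of a type and less RNA per cell cannot be told apart. In Ovx + AngII against Ovx mice, 4 of the 35 genes rose and 0 fell at an adjusted p of at most 0.05 (limma, adjusted over all genes by the Benjamini-Hochberg method); among all genes, 10.2% passed this test, 5.96% higher and 4.28% lower, so that the share of the 35 genes (11.4%) was near that of all genes. There 18 of the 35 genes lay above 0 and 17 below (51.3% of all genes lay below). The groups did not overlap in 11 of the 35 genes, 7 higher and 4 lower with AngII, against 21.8% of all genes, 11.8% higher and 10% lower; an unadjusted p below 0.05 was found in 11 of the 35 genes and in 25.0% of all genes. In AngII against control mice, 0 of the 35 genes passed, where 2.8% of all genes did (1.55% higher and 1.25% lower), although 11 of the 35 had an unadjusted p below 0.05 (31.4%, against 18.7% of all genes). Averaging both comparisons in the same fit, 9 genes passed, 4 higher and 5 lower (25.7%, against 17.7% of all genes; 9.16% higher and 8.5% lower). In that mean, 13 of the 35 genes had an unadjusted p below 0.05 (31.3% of all genes) and 22 lay below 0 (51.5% of all genes). In AngII against control mice 23 lay below 0 (52.1%). The median log2 fold change of the 35 genes was 0.02 in Ovx + AngII against Ovx mice and -0.07 in AngII against control mice, beside -0.01 in both for all genes.

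The library labelled Ctrl replicate 4 decided the count in mice with ovaries. Without it, 6 of the 35 genes passed in AngII against control mice (10.5% of all genes did): Slc16a3, Pgam1 and Pfkp rose, by 1.04, 0.43 and 0.35 on the log2 scale, and Pfkm, Pygm and Pdk2 fell by 0.51, 0.49 and 0.46. Without AngII replicate 2 the count was 1, and without AngII replicate 4 it was 2. In Ovx + AngII against Ovx mice the count was 5 without the library labelled Ctrl replicate 4, through the shared estimate of spread, where 14.3% of all genes passed, the same share as 5 of 35. It was 2 without Ovx replicate 2 or 3 or without Ovx + AngII replicate 2 or 3. The share of all genes is not given for these fits that left out AngII, Ovx or Ovx + AngII libraries. Their counts therefore cannot be read as changes particular to the 35 genes. Pfkp and Slc16a1 passed in each of the 16 fits that left out 1 library. For the mean of both comparisons, the count without the library labelled Ctrl replicate 4 was 12, with Slc16a3 (1.05), Slc2a1 (0.33) and Ldhb (-0.34) added, in a fit where 25.9% of all genes passed.

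**Figure D2:**
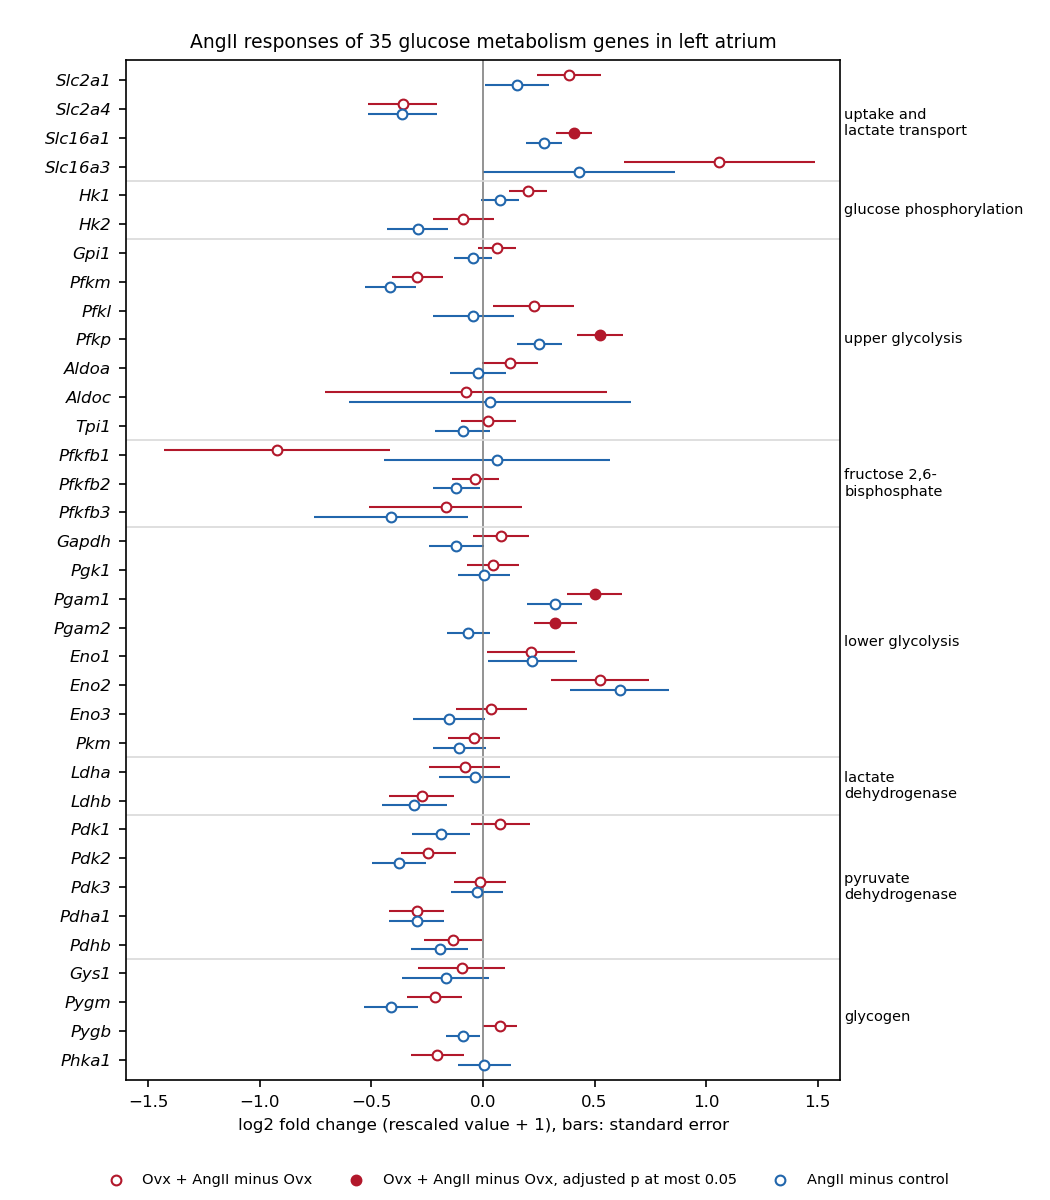
Log2 fold changes with standard errors (bars) of the 35 genes by role, for Ovx + AngII minus Ovx (red) and AngII minus control (blue), 4 libraries a group. Filled points passed an adjusted p of 0.05: Slc16a1, Pfkp, Pgam1 and Pgam2, all in ovariectomized mice and all higher with AngII.

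Among the carriers, the lactate carrier MCT1, encoded by Slc16a1, rose with AngII. Slc16a1 had 4403, 4565, 3814 and 4032 rescaled counts in Ovx + AngII mice, against 3190, 3054, 3120 and 3270 in Ovx mice. It had 3831, 3504, 4567 and 4137 in AngII mice, against 3108, 3636, 3300 and 3197 in control mice. The ovariectomized groups did not overlap, and in mice with ovaries only AngII replicate 2 lay below the highest control. Slc16a1 was 1.33-fold higher in Ovx + AngII mice than in Ovx mice (log2 fold change 0.41 ± 0.08 SE, limma adjusted p = 0.00538), and its mean AngII response was 0.34 ± 0.06 (adjusted p = 0.000852), the smallest p among the 35 genes. Its AngII against control value, 0.27 ± 0.08, did not pass (adjusted p = 0.0806).

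Slc2a4, the insulin-responsive carrier, ran the other way. Slc2a4 had 4762, 5874, 4872 and 4406 rescaled counts in Ovx + AngII mice, against 6545, 6274, 6490 and 6115 in Ovx mice. In mice with ovaries it had 3246, 5228, 5434 and 6164 with AngII, against 7041, 5869, 6978 and 5376 in controls, where the groups overlapped. Its log2 fold change was -0.36 ± 0.15 in both comparisons, which did not pass in either (adjusted p = 0.154 and 0.212), and its mean AngII response of -0.36 ± 0.11 did (adjusted p = 0.0303). That call was kept in 8 of the 16 fits without 1 library, with adjusted p up to 0.0652.

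The other carriers did not pass with all libraries. Slc2a1 had 591, 684.5, 735.1 and 559.8 rescaled counts in Ovx + AngII mice, against 498.6, 515.2, 437.2 and 507 in Ovx mice, with no overlap. It had 586.6, 596.9, 649.9 and 889.9 in AngII mice, against 528.7, 637.8, 514.9 and 764.1 in control mice, and its mean AngII response of 0.27 ± 0.10 missed the test (adjusted p = 0.0785). Slc16a3 encodes MCT4, the lactate exporter of glycolytic cells. It had 105.3, 109.6, 148.4 and 146.4 in Ovx + AngII mice, against 72.06, 58.2, 51.1 and 59.9 in Ovx mice, a fold of 2.08 (log2 fold change 1.06 ± 0.43, adjusted p = 0.133). In AngII mice it had 148.6, 129.9, 131 and 221.8, and the controls had 53.99, 72.44, 104.9 and, in the library labelled Ctrl replicate 4, 407.3. Without that library Slc16a3 rose in both comparisons, by 1.06 in ovariectomized mice (adjusted p = 0.00488) and by 1.04 in mice with ovaries (adjusted p = 0.0129). The sum of macrophage markers was also highest in that library, as given above, and its part in this value was not tested.

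The hexokinases trap glucose in the cell by phosphorylation, Hk1 in most tissues and Hk2 in muscle under insulin. Neither passed in any comparison. Hk1 averaged 6342 ± 332 rescaled counts in Ovx + AngII mice and 5535 ± 608 in Ovx mice (SD, n = 4 each), a log2 difference of 0.20, and Hk2 averaged 3636 ± 696 and 3819 ± 239 in the same groups, a difference of -0.09. Hk1 averaged 6250 ± 617 in AngII mice and 5912 ± 401 in control mice (a log2 difference of 0.08) and Hk2 averaged 3548 ± 697 in AngII mice and 4284 ± 292 in control mice (-0.29, limma unadjusted p = 0.0489, adjusted p = 0.265).

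In the upper part of glycolysis, the 3 phosphofructokinase genes did not move as one. Pfkp, the platelet form of the enzyme at the committed step, had 1258, 1320, 1224 and 1189 rescaled counts in Ovx + AngII mice, against 1028, 800.3, 809.9 and 845 in Ovx mice. With ovaries it had 1101, 1045, 1144 and 1277 after AngII, against 862.4, 931.8 and 885.4 in 3 controls and 1172 in the library labelled Ctrl replicate 4. Every AngII-treated library thus lay above all libraries of its untreated group except that 1 control. Pfkp rose 1.44-fold in Ovx + AngII against Ovx mice (log2 fold change 0.52 ± 0.10, adjusted p = 0.00453), and its mean AngII response was 0.39 ± 0.07 (adjusted p = 0.00157). In AngII against control mice the value was 0.25 ± 0.10 (adjusted p = 0.184).

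Pfkm, the muscle form and by far the most abundant of the family, had 13060, 13180, 10860 and 12660 rescaled counts in Ovx + AngII mice, against 14480, 15780, 14960 and 15630 in Ovx mice. It had 9484, 12130, 12210 and 12140 in AngII mice, against 17740, 14450, 16940 and 12400 in control mice. The groups did not overlap in either comparison. With all libraries, Pfkm was the only one of the 35 genes of which this held in AngII against control mice. Among all genes it held for 7.16% (3.38% lower and 3.78% higher). Without the library labelled Ctrl replicate 4, Pfkp, Pgam1, Slc16a3, Pygm, Pdk2, Pdha1 and Hk2 did not overlap there either. A group with fewer libraries overlaps less readily, and no share of all genes was computed for that set. The mean AngII response of Pfkm was -0.35 ± 0.08 (limma adjusted p = 0.00585), or 0.782 times the level without AngII. The separate values were -0.29 ± 0.11 in ovariectomized mice (adjusted p = 0.11) and -0.41 ± 0.11 in mice with ovaries (adjusted p = 0.0572). Pfkl, the liver form, overlapped throughout. It had 1875, 2413, 2396 and 1857 in Ovx + AngII mice, against 2002, 1651, 1907 and 1698 in Ovx mice, and 1587, 1970, 2111 and 3210 in AngII mice, against 1990, 1820, 2209 and 2983 in control mice.

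The other genes of that part, the phosphoglucose isomerase Gpi1, the aldolases Aldoa and Aldoc and the triose phosphate isomerase Tpi1, passed in no comparison, with log2 fold changes of -0.08 to 0.12 in Ovx + AngII against Ovx mice and -0.09 to 0.03 in AngII against control mice. The bifunctional enzymes of the Pfkfb family make and remove the sugar bisphosphate that switches phosphofructokinase on. Pfkfb1, Pfkfb2 and Pfkfb3 passed in none either. Pfkfb3 ranged from 411.6 to 765.2 rescaled counts in Ovx + AngII mice, 532.2 to 795.1 in Ovx mice, 423.5 to 1144 in AngII mice and 499.3 to 1651 in control mice.

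**Figure D3:**
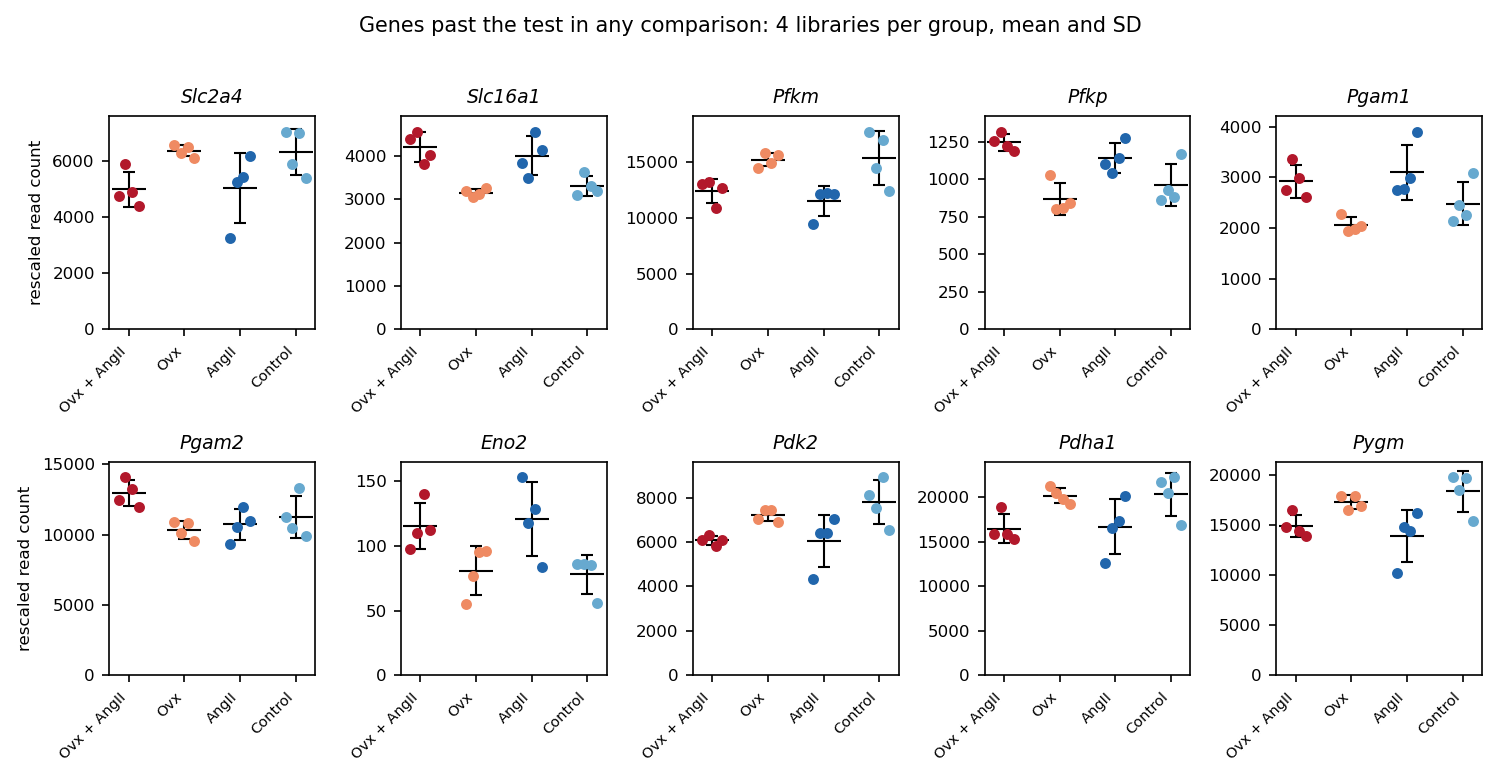
Rescaled counts of the 10 genes past the test in any comparison, 1 point per library, with the mean and SD of each group of 4, for Ovx + AngII, Ovx, AngII and control mice. Slc16a1, Pfkp, Pgam1 and Eno2 were higher in both AngII-treated groups, and Slc2a4, Pfkm, Pdk2, Pdha1 and Pygm were lower in both, whereas Pgam2 was higher than its untreated group in Ovx + AngII mice (12928 and 10328) and not in AngII mice (10718 and 11247).

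In the lower part of glycolysis, the phosphoglycerate mutase genes Pgam1 and Pgam2 rose with AngII in ovariectomized mice. Pgam1, the form of most tissues, had 2744, 3354, 2984 and 2613 rescaled counts in Ovx + AngII mice, against 2280, 1947, 1981 and 2031 in Ovx mice. It had 2750, 2771, 2977 and 3901 in AngII mice, against 2137, 2449 and 2253 in 3 controls and 3076 in the library labelled Ctrl replicate 4. Pgam1 was 1.42-fold higher in Ovx + AngII than in Ovx mice (0.50 ± 0.12, adjusted p = 0.0172), a call lost without Ovx replicate 2 or 3 or Ovx + AngII replicate 2 or 3 (adjusted p up to 0.0556). Its mean AngII response was 0.41 ± 0.09 (adjusted p = 0.00413), and the value in mice with ovaries, 0.32 ± 0.12, did not pass (adjusted p = 0.165). Without the library labelled Ctrl replicate 4 that value was 0.43 and passed (limma adjusted p = 0.0256). The difference between the responses of Pgam1 with all libraries, 0.18, did not pass (limma adjusted p = 0.912).

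Pgam2, the muscle form, had 12450, 14060, 13240 and 11960 rescaled counts in Ovx + AngII mice, against 10870, 10110, 10790 and 9535 in Ovx mice. In mice with ovaries it had 9359, 10570, 11990 and 10950 with AngII, against 11260, 10460, 13340 and 9926 in controls. The ovariectomized groups did not overlap and the others did. Pgam2 rose 1.25-fold in Ovx + AngII against Ovx mice (0.32 ± 0.10, adjusted p = 0.0433), whereas its value in AngII against control mice was -0.07 ± 0.10 (adjusted p = 0.768). The difference between both responses, 0.39, had the smallest p of the 35 genes in that test (unadjusted p = 0.0115) and did not pass (limma adjusted p = 0.831). The call in ovariectomized mice was the least firm of the 4, and was kept in 6 of the 16 fits without 1 library.

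Eno2, the enolase of nerve cells, was scarce in the LA. It had 97.5, 110.2, 139.7 and 112.5 rescaled counts in Ovx + AngII mice, against 55.39, 76.87, 95.2 and 95.81 in Ovx mice. It had 152.8, 117.8, 128.7 and 83.58 in AngII mice, against 85.78, 86.3, 84.81 and 55.53 in control mice, where AngII replicate 4 and the library labelled Ctrl replicate 4 were both the lowest of their groups. Its mean AngII response was 0.57 ± 0.16 (adjusted p = 0.0194), the widest shift among the genes past the test, and neither comparison passed alone (adjusted p = 0.149 and 0.143). The abundant enolases Eno3 (log2 differences of 0.04 and -0.15) and Eno1 (0.22 in both) did not pass, nor did Gapdh, the phosphoglycerate kinase Pgk1 and the pyruvate kinase Pkm, whose log2 fold changes lay between -0.12 and 0.08 over both comparisons.

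At the exit of glycolysis, Ldhb, which favours the use of lactate, averaged 10687 ± 1339 rescaled counts in Ovx + AngII mice and 12852 ± 238 in Ovx mice, and 10850 ± 2647 in AngII mice and 13193 ± 1543 in control mice (SD, n = 4 each). Its mean AngII response of -0.29 missed the test (limma adjusted p = 0.0619). Ldha, which favours lactate formation, differed by -0.08 and -0.04 on the log2 scale in the same comparisons.

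Of the pyruvate dehydrogenase subunits, Pdha1 passed the test. Pdha1, the catalytic alpha subunit, had 15870, 18850, 15850 and 15250 rescaled counts in Ovx + AngII mice, against 21200, 20430, 19780 and 19230 in Ovx mice, with no overlap. It had 12620, 16560, 17350 and 20070 in AngII mice, against 21710, 20460, 22190 and 16860 in control mice. The log2 fold change was -0.30 ± 0.12 in each comparison (adjusted p = 0.145 and 0.201), and the mean AngII response of -0.30 ± 0.09 passed (adjusted p = 0.0271), in 10 of the 16 fits without 1 library. Pdhb, the beta subunit, had 6457, 7933, 6537 and 6428 in Ovx + AngII mice, against 8063, 7343, 7404 and 7116 in Ovx mice, and 4925, 6688, 7140 and 8047 in AngII mice, against 8114, 7201, 8665 and 6399 in control mice, and did not pass (mean AngII response -0.16, adjusted p = 0.238).

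Of the kinases that inactivate this complex, Pdk2 fell. Pdk2 had 6107, 6326, 5821 and 6091 rescaled counts in Ovx + AngII mice, against 7057, 7444, 7441 and 6899 in Ovx mice. It had 4347, 6413, 6428 and 7050 in AngII mice, against 8140, 7537, 8910 and 6560 in control mice. The ovariectomized groups did not overlap, and in mice with ovaries only AngII replicate 4 reached the range of the controls. Its mean AngII response was -0.31 ± 0.09 (adjusted p = 0.0198), with -0.24 in ovariectomized mice and -0.38 in mice with ovaries. Pdk1 did not follow: it had 3485, 4043, 3533 and 3198 in Ovx + AngII mice, against 3365, 3339, 3480 and 3279 in Ovx mice, and 2422, 3287, 3762 and 4516 in AngII mice, against 3740, 3746, 3986 and 4083 in control mice. Pdk3 differed by -0.01 and -0.03 in these comparisons.

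Among the glycogen genes, Pygm, the muscle phosphorylase that releases glucose units from glycogen, had 14810, 16560, 14410 and 13940 rescaled counts in Ovx + AngII mice, against 17910, 16560, 17890 and 16950 in Ovx mice. It had 10240, 14880, 14470 and 16200 in AngII mice, against 19790, 18570 and 19780 in 3 controls and 15420 in the library labelled Ctrl replicate 4. Pygm was 0.804 times as high with AngII over both comparisons (mean response -0.31 ± 0.09, adjusted p = 0.0187), with -0.41 ± 0.12 in mice with ovaries (adjusted p = 0.0774) and -0.22 ± 0.12 in ovariectomized mice (adjusted p = 0.29). Pygb, the brain form, stayed within overlapping ranges. It had 11990, 13760, 13070 and 12940 in Ovx + AngII mice, against 12600, 11750, 12680 and 11980 in Ovx mice, and 11860, 12000, 12750 and 11780 in AngII mice, against 13580, 12230, 14490 and 11460 in control mice. The glycogen synthase Gys1 and the phosphorylase kinase subunit Phka1 did not pass in any comparison.

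Ratios between related genes within a library do not depend on its scaling. They are given as a description with no test, since the values above show the same data. The Pfkp to Pfkm ratio was 0.0963, 0.1, 0.113 and 0.0939 in Ovx + AngII mice, against 0.071, 0.0507, 0.0542 and 0.0541 in Ovx mice, or 1.76 times as high. It was 0.116, 0.0862, 0.0937 and 0.105 in AngII mice, against 0.0486, 0.0645 and 0.0523 in 3 controls and 0.0945 in the library labelled Ctrl replicate 4. The more widely expressed form thus gained on the muscle form in each AngII library relative to the Ovx libraries and those 3 controls.

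The Slc2a4 to Slc2a1 ratio was 8.06, 8.58, 6.63 and 7.87 in Ovx + AngII mice, against 13.1, 12.2, 14.8 and 12.1 in Ovx mice, or 0.596 times as high. In mice with ovaries it was 5.53, 8.76, 8.36 and 6.93 with AngII, against 13.3, 9.2, 13.6 and 7.04 in controls, where the library labelled Ctrl replicate 4 held the lowest value. The Pygb to Pygm ratio was 0.809 to 0.928 in Ovx + AngII mice and 0.704 to 0.709 in Ovx mice, the tightest range of any group. Also without overlap in ovariectomized mice were Pfkl to Pfkm (1.44 times as high with AngII), Slc16a3 to Slc16a1 (1.58 times), Pdhb to Pdha1 (1.12 times), Pgam2 to Pgam1 (0.884 times) and Pdk2 to Pdk1 (0.80 times). In AngII against control mice all 13 ratios examined overlapped. Without the library labelled Ctrl replicate 4, 8 of the 13 did not, among them Pfkp to Pfkm (higher with AngII) and Slc2a4 to Slc2a1 (lower). A group with fewer libraries overlaps less readily, and some ratios share a gene, as Pfkp to Pfkm and Pfkl to Pfkm do. No share over other gene pairs was computed, so these counts have nothing to be set against. The Pgam2 to Pgam1 ratio was 4.19 to 4.58 in Ovx + AngII mice and 2.81 to 4.03 in AngII mice, the only one without overlap between those groups.

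**Figure D4:**
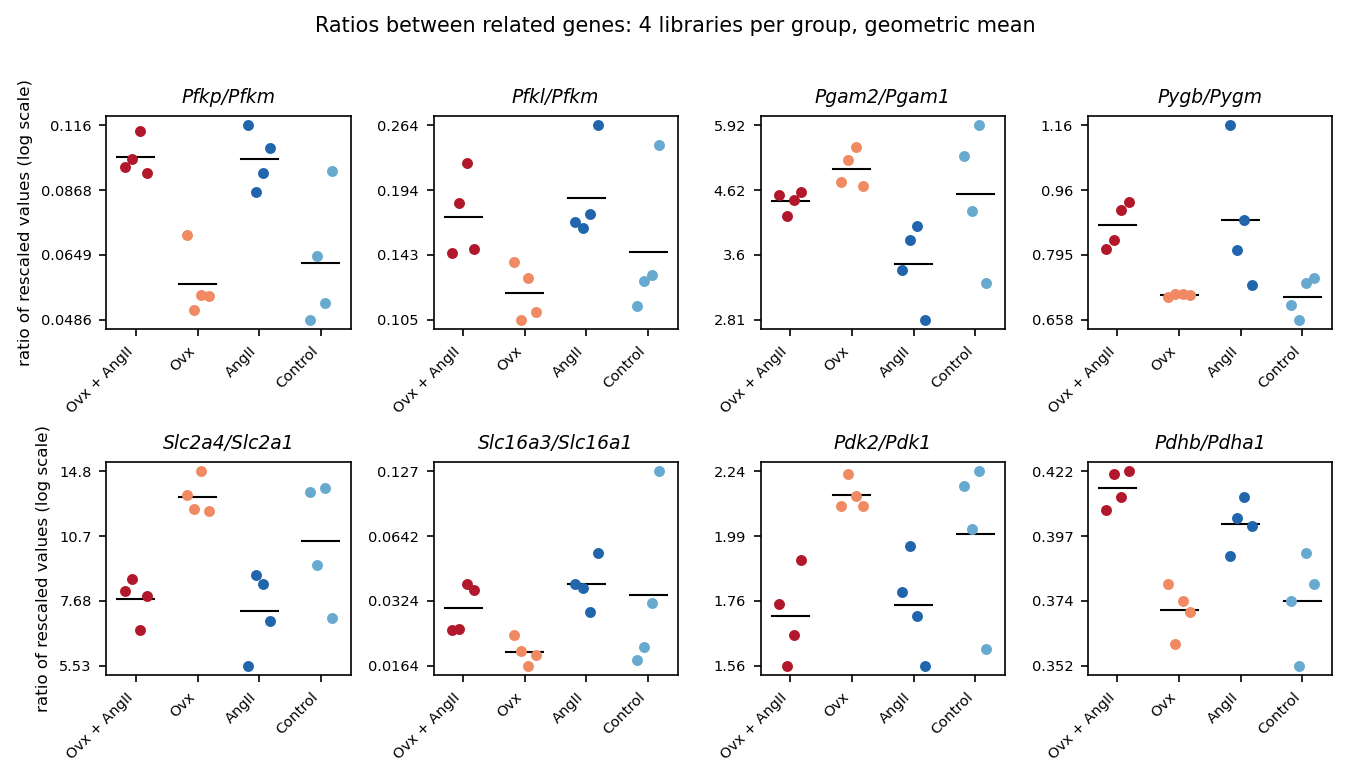
Ratios of rescaled counts between related genes (log axis), 1 point per library, with the geometric mean of each group as a line, for the 8 ratios without overlap in at least 1 comparison. The Pfkp to Pfkm ratio was 0.0939 to 0.113 in Ovx + AngII mice and 0.0507 to 0.071 in Ovx mice; in control mice the library labelled Ctrl replicate 4 is the point farthest from the other 3 in the Pfkp to Pfkm, Pfkl to Pfkm and Slc16a3 to Slc16a1 plots.

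Ovariectomy itself was compared without AngII (Ovx against control mice) and with it (Ovx + AngII against AngII mice). None of the 35 genes passed in either (limma, adjusted p of at least 0.565 and 0.711), and neither did any of the 14251 genes tested (0.0% in both); at an unadjusted p below 0.05 there were 2 of the 35 genes in the first (Slc2a1 and Slc16a3, both lower) and 1 in the second (Pgam2, higher), against 8.66% and 6.16% of all genes. Without the library labelled Ctrl replicate 4 the Slc16a3 value was -0.31 in place of -0.92, and that of Slc2a1 -0.19 in place of -0.30. The 35 genes leaned low in Ovx mice: 29 of 35 had a log2 fold change below 0, where 51.9% of all genes did, and their median was -0.12, beside -0.01 for all genes. Without that library 31 of 35 lay below 0, with the same median of -0.12. In the same comparison all 7 macrophage markers lay below 0 (median -0.46, or -0.16 without that library) and 6 of 7 white adipocyte markers above 0 (median 1.49, or 1.21 without it), none past the test, and their part in the values of the 35 genes was not tested. Gapdh and Pdk1 were lower in Ovx mice with no overlap, a feature of 4.46% of all genes, 2.24% lower and 2.22% higher. In Ovx + AngII against AngII mice 20 of the 35 genes lay below 0 (48.2% of all genes), and no gene of the 35 was without overlap (4.53% of all genes, 2.15% higher and 2.38% lower). Gapdh had 31910, 28740, 31580 and 29150 rescaled counts in Ovx mice, against 32690, 32320, 37290 and 37600 in control mice (log2 fold change -0.20, 95% interval -0.47 to 0.06), and Pdk1 had a log2 fold change of -0.21 (interval -0.49 to 0.07). Both intervals include 0.

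The scale of the table mattered here. On the values as deposited, the median of all genes in Ovx against control mice was -0.17, 34 of the 35 genes were below 0, and 3 of them passed (Gpi1 at -0.32, Pgam1 at -0.42 and Slc2a1 at -0.47), together with 9.68% of all genes. Averaged over both comparisons of ovariectomy, 13 of the 35 genes and 28.4% of all genes passed on that scale, all 13 lower. With rescaled counts 0 of the 35 and 0.0% of all genes passed. An unadjusted p below 0.05 was then found in 0 of the 35 and in 9.28% of all genes (limma). After rescaling, the same Gpi1, Pgam1 and Slc2a1 values were -0.15, -0.26 and -0.30. The test of whether ovariectomy changed the AngII response found 0 of the 35 genes (smallest adjusted p = 0.831, and 1 with an unadjusted p below 0.05, where 5.8% of all genes had one). In that test 6 of the 35 genes lay below 0, against 47.2% of all genes.

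**Figure D5:**
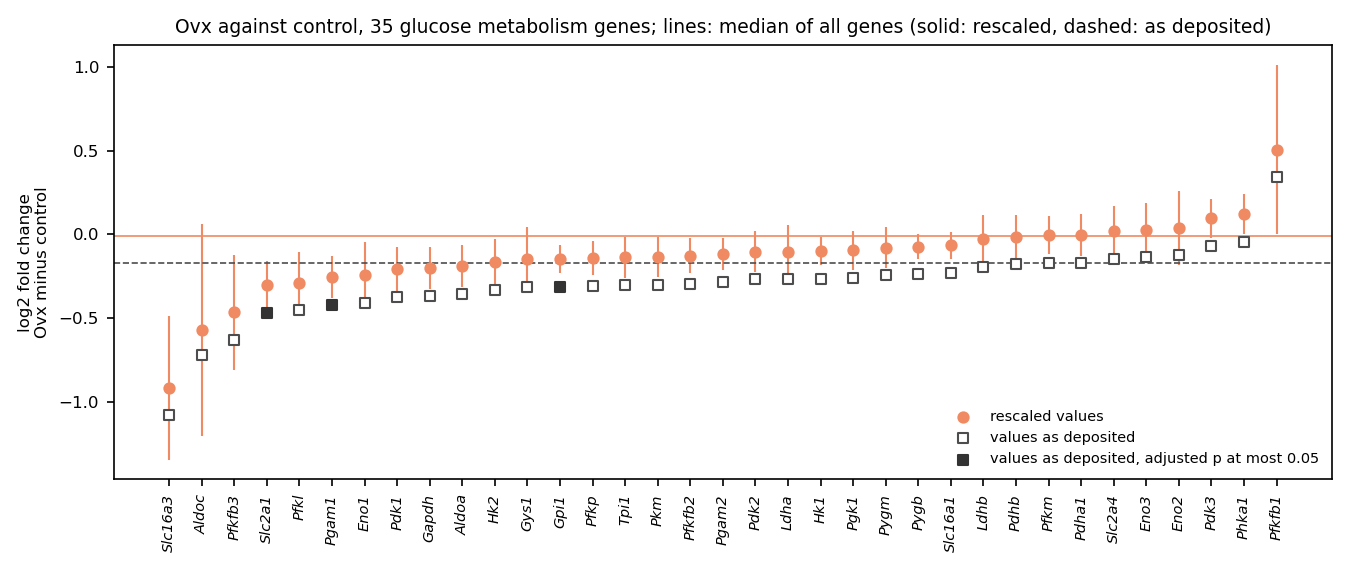
Log2 fold change of each of the 35 genes in Ovx against control mice, on rescaled counts (circles, bars are standard errors) and on the values as deposited (squares, filled where adjusted p was at most 0.05). Lines mark the median of all genes, -0.01 after rescaling (solid) and -0.17 as deposited (dashed).

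Other genes of the pathway, from wider lists of the same roles, mostly did not pass the test. The shares to set beside these counts in Ovx + AngII against Ovx mice are 5.96% of all genes higher and 4.28% lower. Of 13 further genes of glucose uptake and trapping tested, 0 rose and 2 fell in that comparison. Tbc1d4, the substrate of insulin signalling that holds GLUT4 inside the cell, had 2888, 3579, 2770 and 3063 rescaled counts in Ovx + AngII mice, against 4762, 4165, 4603 and 4588 in Ovx mice (log2 fold change -0.56, limma adjusted p = 0.00662). Tbc1d4 also fell in AngII against control mice (-0.47, adjusted p = 0.0431), and its relative Tbc1d1 fell in ovariectomized mice (-0.29, adjusted p = 0.0441). Slc2a3, the neuronal carrier, did not pass (-0.15 and -0.04 in the same 2 comparisons).

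Of 8 further glycolysis and gluconeogenesis genes tested, 0 rose and 4 fell in the mean AngII response (9.16% of all genes higher and 8.5% lower). They included the muscle fructose bisphosphatase Fbp2 (-1.58), the D-lactate dehydrogenase Ldhd (-0.65) and Galm (-0.27). Of 6 further carriers of lactate and pyruvate, Slc16a7, which encodes MCT2, fell (-0.62 in ovariectomized mice, adjusted p = 0.00529). The mitochondrial pyruvate carrier genes Mpc1 and Mpc2 did not pass (-0.10 and -0.19 in ovariectomized mice, -0.06 and -0.12 in mice with ovaries).

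Of 8 further pyruvate dehydrogenase genes, Pdp1, the phosphatase that reactivates the complex, fell in both comparisons. Pdp1 had 813, 995, 898.2 and 930.5 rescaled counts in Ovx + AngII mice, against 1170, 1199, 1441 and 1185 in Ovx mice (-0.46, adjusted p = 0.0136), and 831.2, 896, 894.1 and 1014 in AngII mice, against 1323, 1099, 1460 and 1040 in control mice (-0.43, adjusted p = 0.0435). Pdk4, the kinase induced by fasting, did not pass in any comparison: it had 4475, 3762, 5045 and 3939 in Ovx + AngII mice, against 13580, 5160, 8725 and 2832 in Ovx mice, and the 95% interval of its log2 difference was -1.44 to 0.25. Its range within the Ovx group was wider than its shift between groups.

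Of 24 further glycogen genes tested, 2 rose and 2 fell in Ovx + AngII against Ovx mice, beside 10.2% of all genes in either direction. The catalytic subunit of phosphorylase kinase Phkg1, which activates Pygm, had 1211, 1738, 1035 and 1199 rescaled counts in Ovx + AngII mice, against 2330, 2648, 2619 and 2412 in Ovx mice (-0.97, adjusted p = 0.0134), and the regulatory subunit Phka2 fell by 0.45. Ppp1r3c, a subunit that brings protein phosphatase to glycogen and favours its synthesis, rose by 0.61 (adjusted p = 0.0155), and glycogenin Gyg, which primes new glycogen, by 0.37. Phkb and Ppp1r3d fell in the mean AngII response, by 0.20 each. In the pentose phosphate and hexosamine routes, of 14 genes tested, the transketolase Tkt fell by 0.42 in ovariectomized mice and the hexosamine enzyme Gnpnat1 rose by 0.41 in the mean response.

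Of 20 regulators of these genes, 0 rose and 4 fell in Ovx + AngII against Ovx mice (5.96% of all genes rose and 4.28% fell): the transcription factors Mef2a (-0.46) and Esrra (-0.40), the glucose sensor Mlxip (-0.42) and the insulin signalling kinase Akt2 (-0.24). Without the library labelled Ctrl replicate 4, 2 rose and 4 fell there, in a fit where 14.3% of all genes passed. The 2 were Hif1a (0.45, limma adjusted p = 0.0102) and the insulin receptor gene Insr (0.29, adjusted p = 0.0477). Hif1a also rose in the mean AngII response of that fit (0.38, adjusted p = 0.00203). Akt2 also fell in AngII against control mice (-0.25, adjusted p = 0.0457), and the insulin receptor Insr rose in the mean response (0.23). Txnip, an inhibitor of glucose uptake that responds to glucose, did not pass (-0.21 and -0.37). No gene of these lists passed in either comparison of ovariectomy (limma). In AngII against control mice without the library labelled Ctrl replicate 4, Tbc1d4 (-0.52), Pdp1 (-0.50) and Akt2 (-0.27) fell as with it, and Phkg1 (-0.88), Esrra (-0.46), Ldhd (-0.65) and Fbp2 (-2.09) passed there as well.

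Markers of the cells that make up the LA moved with AngII as well. The 8 markers of atrial cardiomyocytes summed to 1914000 to 2106000 rescaled counts in Ovx + AngII mice and 1573000 to 1834000 in Ovx mice, and to 1739000 to 2110000 in AngII mice and 1451000 to 1822000 in control mice, none of the 8 at 0 in all libraries, and the lung marker Sftpb was at 0 in each library. The sum was led by Nppa, the atrial natriuretic peptide, which rose (0.84 in Ovx + AngII against Ovx mice, adjusted p = 0.0311), whereas 4 of the 8 markers lay below 0 (median -0.03); Tnni3 fell in the mean AngII response (-0.44, adjusted p = 0.015), and Myl7 was lower in Ovx + AngII than in Ovx mice with no overlap (-0.42, adjusted p = 0.168). The 9 fibroblast markers summed to 140200 to 170100 in Ovx + AngII mice and 130800 to 148400 in Ovx mice, the 7 endothelial markers to 29450 to 35970 and 26720 to 27610, and the 5 smooth muscle markers to 6678 to 8345 and 5528 to 5981. In AngII and control mice these sums were 128700 to 154100 and 102100 to 140900 for fibroblasts, 33140 to 35470 and 25920 to 33870 for endothelium, and 6272 to 9828 and 4429 to 5886 for smooth muscle. The 11 skeletal muscle markers summed to 1491 to 3013 in Ovx + AngII mice and 702.1 to 952.3 in Ovx mice, and to 846.6 to 2698 in AngII mice and 749.8 to 1317 in control mice. In the fit without the library labelled Ctrl replicate 4, 7 of them were tested. There Acta1 (7.91), Tnnt3 (3.75) and Mybpc2 (0.76) rose in Ovx + AngII against Ovx mice, while 2 of the 7 lay below 0. The list thus did not move as one. The cells that held the RNA of Acta1 and the others were not identified, so these values are no measure of skeletal muscle. Of the fibroblast markers, Col1a1, Col1a2, Col3a1 and Pi16 rose in Ovx + AngII against Ovx mice (0.98 to 1.22), while Gsn, Dcn, Pdgfra and Tcf21 had values of -0.21 to -0.06 and did not pass. The part of these markers in the values above was not tested.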

How the data were processed

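Total RNA of whole left atria was sequenced by the authors from stranded mRNA libraries, 4 per group. Reads were aligned with STAR and quantified with Salmon against mm10, and the authors normalised the counts with DESeq2 on BaseSpace; versions are not given in the sources used here. What the authors deposited is thus a normalised signal for each gene, in counts that need not be whole. Low values within 0.1 of a whole multiple made up 77.6% to 91.2% per library, so reads were not recovered and count models were not applied. Rows with a date for a symbol (14 of 24972, 0.0721% of values) were left out.

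Values were rescaled by median-of-ratios factors, and log2(value + 1) of the 14251 genes with a mean of at least 10 was fitted with limma 3.58.1 in R 4.3.3 (4 group means, 16 libraries, trended eBayes, 7 contrasts, two-sided, Benjamini-Hochberg over all genes), so that fold changes of low genes are understated. Genes passed at an adjusted p of at most 0.05; the study's own threshold adds a log2 fold change of 1. The script was tested on simulated data. Groups came from the sample labels. Replicate numbers follow deposition order, and nothing states a batch; p-values measure the spread between these libraries. Per-library values are given for genes past the test and for pairs whose ratio does not overlap; wider lists name genes past the test. Genes and lists were chosen with earlier results of these data known. Alternatives were pseudocounts of 0.5 and 5, no minimum and a mean of 50, no rescaling, equal totals, TMM, array weights, 2-group fits and leaving out libraries; leaving out Ctrl replicate 4 and AngII replicate 4 together was chosen after seeing the data. The result of 1 gene of the wider lists is not reported here.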

Additional observations from a re-analysis of the deposited data

Results flagged for a closer look

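Of 140 groups of 4 values (35 genes in 4 groups), 6 held a library far from the other 3 by Dixon's ratio, where chance gives about 7 at this limit. Of these, 4 were in the library labelled Ctrl replicate 4. There Slc16a3 was the highest of its group at 407.3 rescaled counts (the others 53.99 to 104.9), Ldha was the highest at 11380 (8409 to 8648), Ldhb the lowest at 10890 (13820 to 14200) and Eno2 the lowest at 55.53 (84.81 to 86.3). Pfkm was the lowest of the AngII group in replicate 1, at 9484 (12130 to 12210), and Pdhb the highest of the Ovx + AngII group in replicate 2, at 7933 (6428 to 6537).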

How the results depend on the processing

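The counts of the 35 genes past the test moved with several choices. In AngII against control mice the count of 0 became 2 with equal column totals, 5 with array weights and 9 without Ctrl replicate 4 and AngII replicate 4, and ranged from 0 to 6 when 1 library was left out. In Ovx + AngII against Ovx mice the count of 4 became 11 with array weights, 12 in a fit of only the 2 groups, 7 without Ctrl replicate 4 and AngII replicate 4 and 0 at the study's fold threshold, with a range of 2 to 5 when 1 library was left out. The mean AngII response gave 14 genes without those 2 libraries, 0 at the fold threshold and 7 to 12 when 1 library was left out, against 9. On values as deposited, Ovx against control mice gave 3 genes and the mean of both ovariectomy comparisons 13, against 0 in each; with 1 library left out, both gave 0, as did Ovx + AngII against AngII mice and the difference of the AngII responses. Over all genes, the count in AngII against control mice was 399, against 1491 without Ctrl replicate 4, 1770 without both libraries, 984 with array weights and 79 at the fold threshold. In Ovx + AngII against Ovx mice it was 1459, against 2143 without both libraries, 2872 with array weights, 2508 in the fit of 2 groups and 331 at the fold threshold. For the mean AngII response it was 2517, against 3786 without both libraries, 3800 with array weights and 283 at the fold threshold. On values as deposited, all genes gave 1380 in Ovx against control mice, 108 in Ovx + AngII against AngII mice and 4049 in the mean of both, against 0 in each. All-gene counts are not given here for equal column totals or for fits without 1 library other than Ctrl replicate 4. Beyond the scale of the table and the smaller sets of libraries, the cause was not tested. No gene past the test changed direction under any alternative. Among genes not past it, the sign of the log2 fold change turned in at least 1 fit without 1 library for 14 of the 35 in AngII against control mice (Pgam2, -0.07, and Gapdh, -0.12, among them), 7 in Ovx + AngII against Ovx mice (Pfkfb3, -0.17, among them), 11 in Ovx against control mice and 24 in Ovx + AngII against AngII mice. Pfkp, Pgam1, Slc16a1, Eno2, Pfkm, Pdk2 and Pygm passed for the mean AngII response in all 16 fits without 1 library. No paired analysis was possible because the replicate numbers follow the order of deposition and pair no mice. Depth of the reads behind each value is not known, since the deposited values are normalised.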
